A study of Mus musculus with 2 samples.

Results

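Peaks of open chromatin were described at 6 genes that encode transcription factors of naive pluripotency other than the core and Klf factors: Esrrb, Tfcp2l1, Tbx3, Nr5a2, Prdm14 and Zfp42. A peak belonged to a gene if any part of it lay in the gene, as annotated by GENCODE vM1, or within 50 kb on either side. These windows held 62 of the 71914 peaks of the WT library and 52 of the 61640 peaks of the Uhrf1 KO library. The 6 genes were taken from 22367 annotated protein-coding genes, and all 6 were found, Tfcp2l1 under its older symbol Tcfcp2l1.

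The study profiled accessible DNA by ATAC-seq, in which the transposase Tn5 inserts sequencing adapters into DNA that is not packed by nucleosomes. The 2 libraries came from undifferentiated mouse embryonic stem cells (ESCs) of WT or Uhrf1 KO genotype, each made from 50000 lysed cells. The paper names the established line E14 and Uhrf1 KO ESCs from the same group, without stating the parent line of the KO cells. It also derived a further Uhrf1-null line and does not say which line was used for ATAC-seq. Both genotypes were grown in serum with leukemia inhibitory factor on gelatin or on a layer of embryonic fibroblasts, and the labels do not say which of these surfaces was used for each library or how many clones the KO line represents. With 1 library per genotype there was no replicate error and no test between genotypes, and all intervals below are 95% exact intervals that cover counting error only.

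Naive pluripotency is the state of the inner cell mass before implantation, and ESCs keep it through a network of transcription factors that bind each other's enhancers as well as their own. Esrrb and Nr5a2 are orphan nuclear receptors, Tfcp2l1 is a grainyhead-like factor downstream of leukemia inhibitory factor, Tbx3 is a T-box factor, Prdm14 restrains fibroblast growth factor signalling and de novo DNA methylation, and Zfp42, also known as Rex1, is a zinc finger protein used as a marker of the naive state. Uhrf1 recognises hemimethylated DNA and brings the maintenance methyltransferase Dnmt1 to it, so cells without it lose DNA methylation.

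Before the genes are described, a few facts of the whole lists are needed. The deposited peaks are short intervals of about 100 bp, so a wide open region appears as several neighbouring peaks. The lists carry no read counts, so the depth behind a peak is unknown. The deposited score is 1 for every peak. The number in a peak's name ran through each chromosome repeatedly in ascending position (97.0% of consecutive numbers in WT and 97.1% in KO), so that peaks fell into tied runs. The runs were counted from the end of each chromosome's list and are called rank steps here, with step 1 the last run and all steps from 20 upwards joined as "20 or more". Of the WT peaks at step 1, 34.6% had a KO peak within 100 bp, and of those at step 20 or more, 97.8% did. What quantity set the order is not stated in the sources used here, so a step is used only as a position in a list. Peaks within 100 bp of a peak of the other genotype are called shared, and the rest WT only or KO only.

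The markers of ESCs (Pou5f1, Sox2, Nanog, Lin28a, Utf1 and Dppa4) had a peak within 2 kb of a transcription start site (TSS) at 6 of 6 genes in WT and at 5 of 6 in KO, where Dppa4 had none. Of 8 fibroblast markers, 6 had such a peak in WT and 5 in KO, with Dcn the gene that differed and with Col3a1 and Lum lacking one in both. Of all protein-coding genes, 57.0% had such a peak in both genotypes, 6.64% in WT alone and 1.73% in KO alone. A TSS peak was thus common among genes in general and does not set these markers apart. In windows of the same size, the ESC markers had 69 WT and 47 KO peaks (ratio 0.681, interval 0.460 to 1.00). The fibroblast markers had 42 and 40 (0.952, 0.602 to 1.5), where the ratio of all peaks was 0.857. Their part in the results was not tested. Uhrf1 itself had 2 WT and 3 KO peaks at its TSSs, which does not bear on the knockout, since a peak at its TSSs says nothing of whether its product is made. Chromosome 8, which carries Zfp42, had a KO/WT peak ratio of 0.641, while the other 18 autosomes lay between 0.805 and 0.924.

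The number of peaks was similar in both genotypes at most of the 6 genes. Together the windows held 0.839 KO peaks per WT peak (interval 0.569 to 1.23), beside 0.857 for all peaks. Esrrb had 16 peaks in WT, with an interval from 9.15 to 26.0, and 13 in KO, with an interval from 6.92 to 22.2. Prdm14 had 13 WT and 11 KO peaks, Tbx3 had 7 and 6, and Nr5a2 had 6 and 6. Zfp42 had 14 WT peaks (7.65 to 23.5) and 8 KO peaks (3.45 to 15.8). Tfcp2l1 was the gene with more KO than WT peaks, 8 (3.45 to 15.8) against 6 (2.20 to 13.1). The intervals of the genotypes overlapped at all 6 genes. These orders are not firm: in the gene body alone Tfcp2l1 had 4 WT and 3 KO peaks, with merged neighbours Tbx3 had 4 and 5, with the longer WT list shortened to the length of the KO list Prdm14 had 8 and 11, and at step 5 or more, on the scale of list position described above, Esrrb had 10 and 11.

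**Figure D1:**
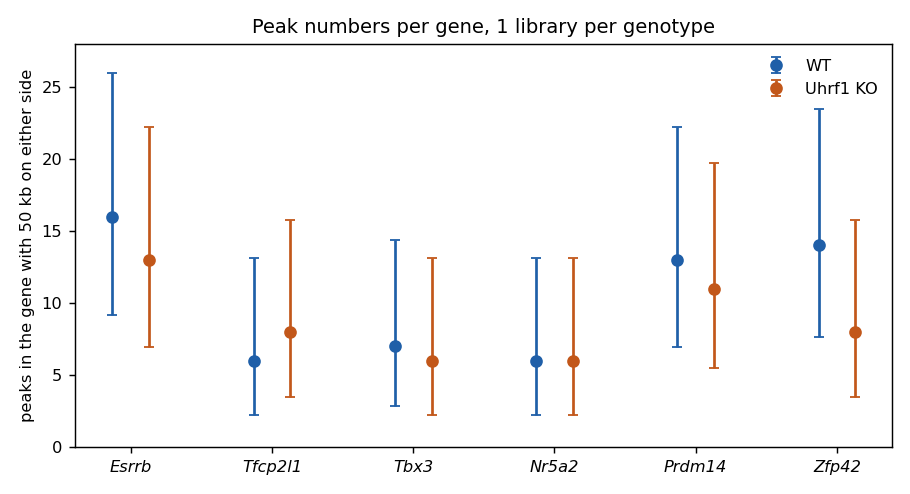
Number of ATAC-seq peaks (vertical axis) in each gene with 50 kb on either side, for the WT library (blue) and the Uhrf1 KO library (orange), with 95% exact Poisson intervals as bars. The bars of the genotypes overlap at every gene, and Tfcp2l1 is the gene at which the KO point (8) lies above the WT point (6).

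Set against other genes, 13515 protein-coding genes had windows with at least 10 peaks of both lists together, and their median KO/WT ratio was 0.818, with quartiles of 0.636 and 1.00. The ratios of the 6 genes had a median of 0.852. A ratio at least 1.5 times below that of all peaks was found at 0 of the 6 genes and at 16.2% of all windows. A ratio at least 1.5 times above it was found at 1 of the 6 genes, Tfcp2l1 with 1.33 (interval 0.406 to 4.66), and at 9.63% of all windows. Zfp42, with 0.571 (interval 0.208 to 1.46), lay just inside the lower limit, and 16.2% of windows had a lower ratio. On chromosome 8 the median window ratio was 0.667, and the ratio of Zfp42 was 0.891 times that of its chromosome.

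**Figure D2:**
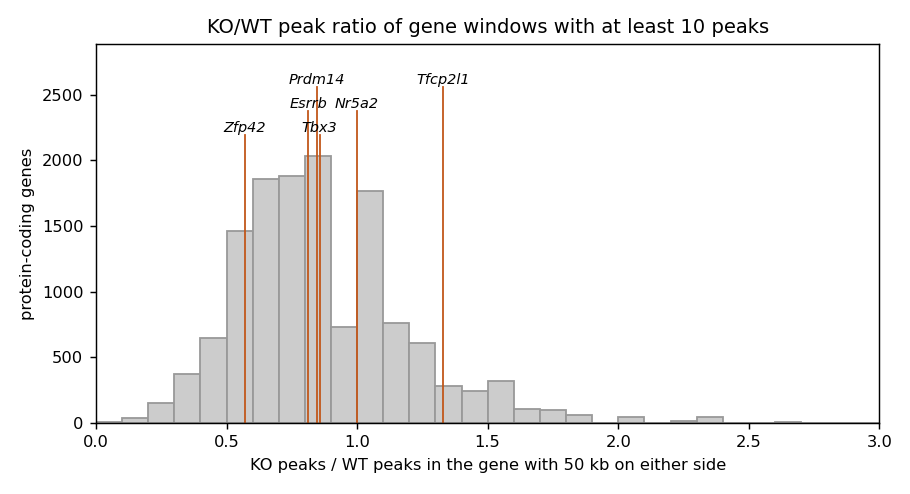
Number of protein-coding genes (vertical axis, grey bars) by the ratio of KO to WT peaks in the gene with 50 kb on either side (horizontal axis), for windows with at least 10 peaks. Orange lines mark the 6 genes, of which Zfp42 has the lowest ratio (0.571) and Tfcp2l1 the highest (1.33).

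Peaks found in 1 genotype made up 24 of the 62 WT peaks, or 38.7% (interval 26.6 to 51.9%), against 32.1% of all WT peaks. Of the 52 KO peaks, 15 were KO only, or 28.8% (17.1 to 43.1%), against 24.6% of all KO peaks. Both intervals hold the share of the whole list. The genes differed from each other in this: 9 of 14 WT peaks at Zfp42 and 7 of 13 at Prdm14 were WT only, but 0 of 6 at Nr5a2, 1 of 7 at Tbx3 and 4 of 16 at Esrrb. Tfcp2l1 had 3 WT only peaks of 6 and 5 KO only peaks of 8.

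A peak within 2 kb of an annotated TSS was present at 6 of 6 genes in WT and at 5 of 6 in KO. Of all protein-coding genes, 57.0% had such a peak in both genotypes, 6.64% in WT but not in KO, and 1.73% in KO but not in WT. The gene of the 6 that had it in WT but not in KO was Prdm14, and 0 of the 6 had it in KO alone.

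**Figure D3:**
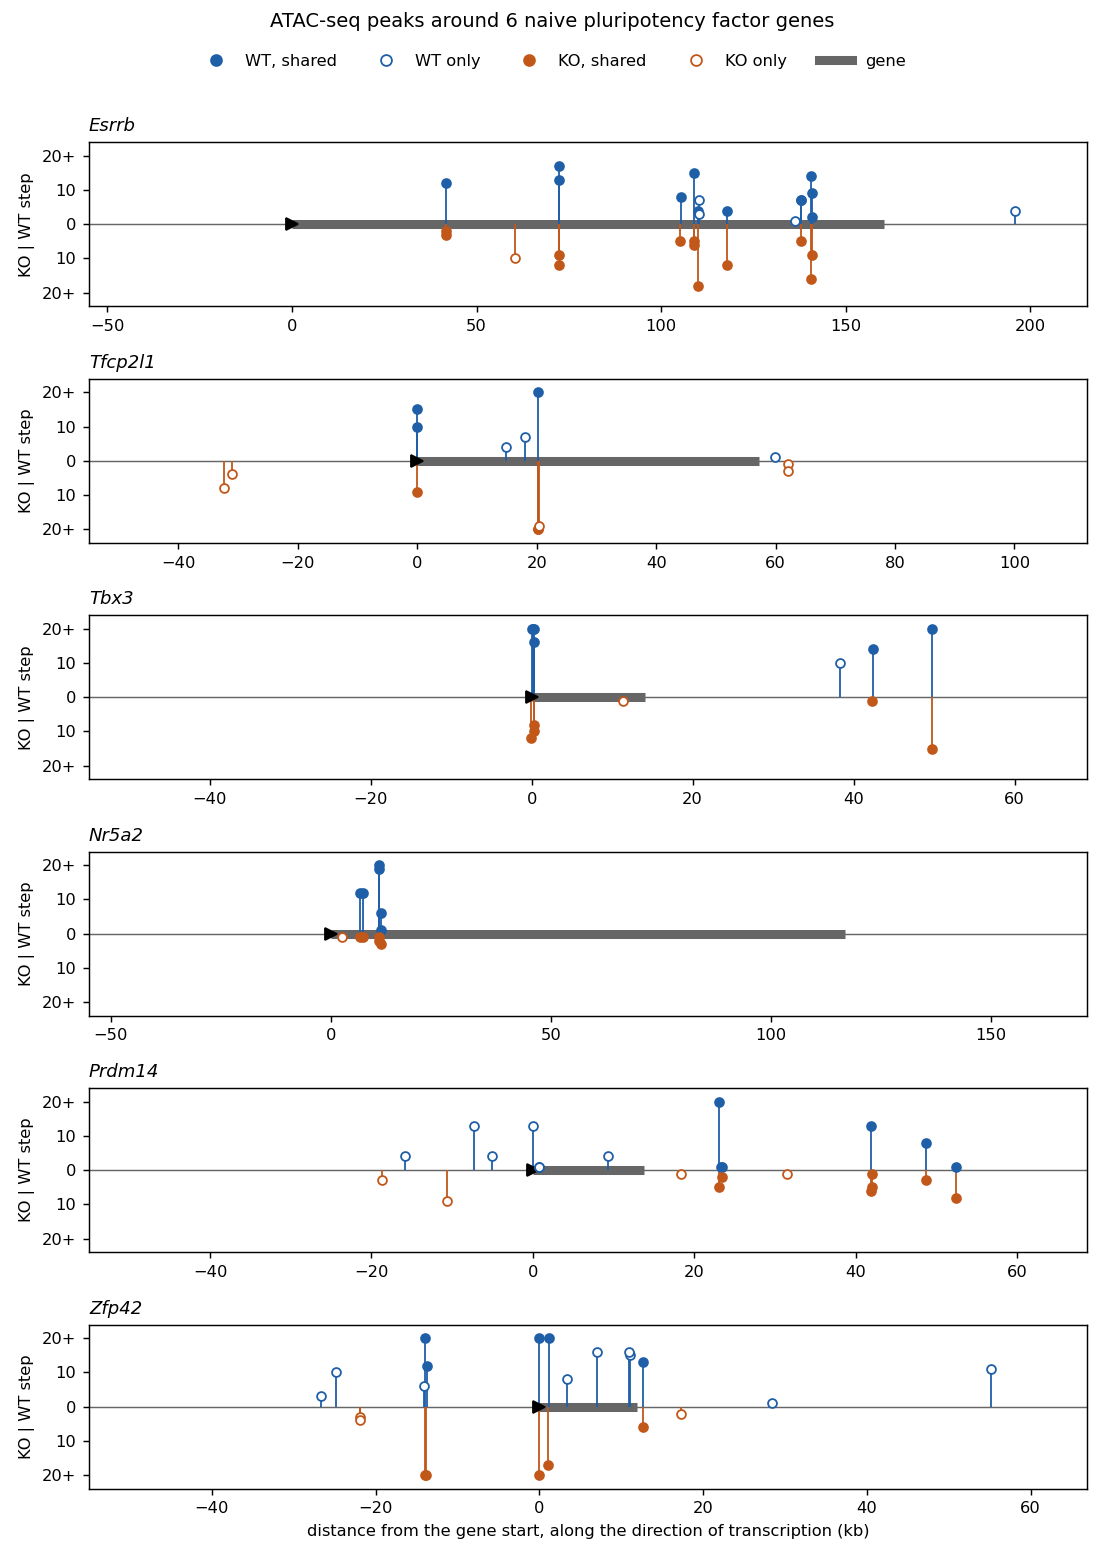
Peaks along the 6 genes, with the distance from the gene start in kb on the horizontal axis, the gene as a grey bar and an arrowhead at its start. Each stem is a peak, WT upwards in blue and KO downwards in orange, with its rank step as height and an open circle where the other genotype has no peak within 100 bp. Open WT circles cover the start and upstream side of Prdm14, and the peaks of Nr5a2 stand together near its start, with 4 WT peaks at step 12 or above and all 6 KO peaks at step 3 or below.

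Prdm14 lies on chr1:13103538-13117244 on the minus strand and has 1 annotated TSS. In WT, a peak at step 13 lay 31 bp upstream of the TSS, and a pair of peaks at step 1 lay 730 and 783 bp inside the gene, in an intron. In KO the closest peak lay 10608 bp upstream, at step 9. From 9.26 kb inside the gene to 15.9 kb upstream of it, all 7 WT peaks were WT only, at steps from 1 to 13. The KO only peaks upstream lay 10.6 and 18.7 kb from the TSS, at steps 9 and 3. The 300 bp from 250 bp before the TSS to 50 bp after it had a GC content of 59.7% and 10 CpG dinucleotides, where the median over genes was 55.0% and 11.0. The WT peak closest to the Prdm14 TSS, which had no KO partner, is shown on the plus strand of mm9 and without capitals, since none of the motifs searched lay in it:
Prdm14, WT only, chr1:13117225-13117325: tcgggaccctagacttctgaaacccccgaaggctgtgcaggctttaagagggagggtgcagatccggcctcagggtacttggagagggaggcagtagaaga

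On the far side of Prdm14 the genotypes shared their peaks. All 6 WT peaks downstream of the gene, 23.1 to 52.4 kb from its start, had a KO partner. The peak at 23.1 kb stood at step 20 or more in WT and at step 5 in KO. The peak at 41.9 kb stood at step 13 in WT, and 3 KO peaks lay at or next to it, at steps 6, 5 and 1. A pair of WT peaks next to the first, both at step 1, met a KO peak at step 2. At 52.4 kb the order was the other way round, with step 1 in WT and step 8 in KO. The further KO only peaks downstream, at 18.4 and 31.5 kb, were both at step 1.

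Esrrb lies on chr12:87702067-87862578 on the plus strand, has 7 transcripts with 5 TSSs, and is 161 kb long. Neither genotype had a peak at its first TSS, where the closest lay 41.8 kb into the gene in both. The peaks of both genotypes lay almost all in introns, 15 of 16 in WT and 12 of 13 in KO. The TSS shared by 3 transcripts, 60.5 kb into the gene, had a KO only peak at step 10, of which the middle lay 25 bp upstream. The closest WT peak to this TSS was 11819 bp away. This is the only KO only peak of Esrrb, and it is shown here on the plus strand:
Esrrb, KO only, chr12:87762519-87762619: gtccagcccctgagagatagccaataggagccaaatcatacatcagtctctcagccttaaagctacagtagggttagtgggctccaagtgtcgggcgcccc

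At an internal TSS of Esrrb, 109 kb into the gene, the genotypes shared a peak. It stood at step 15 in WT, 4 bp from the TSS, and was met in KO by a pair of peaks at steps 6 and 5. About 1 kb further on, a peak holding an octamer (ATGCAAAT, the element bound by Pou5f1) stood at step 4 in WT and at step 18 in KO, the highest step of any KO peak at Esrrb. A second octamer peak, 118 kb into the gene, stood at step 4 in WT and at step 12 in KO. These were the octamer peaks of the 6 genes: 2 of 62 in WT and 2 of 52 in KO, against 1.58% and 1.95% of all peaks. The octamer was searched in the 200 bp around each peak's middle. Within the deposited intervals alone, 0 WT peaks and 1 KO peak held it. Next to the first octamer peak lay a pair of WT only peaks at steps 3 and 7, with gaps of 168 and 220 bp to the KO peak. The KO peak is shown with the octamer in capitals, in its reverse complement:
Esrrb, shared, KO peak, chr12:87811953-87812053: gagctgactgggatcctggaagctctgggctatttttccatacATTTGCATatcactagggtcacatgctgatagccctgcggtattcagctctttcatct

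A cluster in an Esrrb intron, about 141 kb into the gene, held both copies found of the estrogen-related receptor (ERR) element TCAAGGTCA. Esrrb itself and its relatives bind this sequence. Only sequence around the peaks was searched, not the whole windows. The cluster had 3 WT peaks, at steps 14, 9 and 2, and 2 KO peaks, at steps 16 and 9. The 200 bp around each peak's middle were searched on both strands, and the element was met in 3 WT peaks of the 6 genes (4.84%, interval 1.01 to 13.5%) and in 1 KO peak (1.92%, 0.0487 to 10.3%), against 0.295% and 0.327% of all peaks. The 3 WT matches are 2 positions, since neighbouring peaks shared one of them, and each lay just outside the deposited interval of the WT peak. The KO match was the first position and lay inside the deposited interval of its KO peak. The second position lay beyond the 200 bp searched around the KO peaks, so these numbers depend on where the peak middles fell. Both positions are shown on the plus strand with the element in capitals, the first of them in its reverse complement:
ERR element 1, chr12:87842637-87842705: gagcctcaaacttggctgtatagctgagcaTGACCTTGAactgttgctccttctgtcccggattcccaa
ERR element 2, chr12:87842979-87843047: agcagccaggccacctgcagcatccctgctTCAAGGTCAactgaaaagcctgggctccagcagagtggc

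The other shared peaks of Esrrb all stood at a lower step in KO than in WT. Steps were lower in KO in general too, with medians over all shared WT peaks of 14.0 in WT and 10.0 in KO. The peak at 41.8 kb stood at step 12 in WT, and its KO neighbours at steps 3 and 2. The pair at 72.3 and 72.4 kb stood at steps 13 and 17 in WT and at 9 and 12 in KO. The peak at 105 kb stood at step 8 in WT and 5 in KO. A pair of WT peaks at 138 kb, both at step 7, met a KO peak at step 5. The remaining WT only peaks lay 136 kb into the gene, at step 1, and 196 kb from its start, past its end, at step 4.

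Tfcp2l1 lies on chr1:120524522-120581744 on the plus strand and has 1 annotated TSS. Its start was open in both genotypes: WT had peaks 109 bp upstream at step 10 and 25 bp inside at step 15, and KO had a peak 0.101 kb upstream at step 9. The position that stood highest in both lists lay in an intron 20.2 kb from the TSS. There WT had a peak at step 20 or more, and KO had peaks at step 20 or more, 20 or more and 19, spread over a further 0.2 kb. The last of these KO peaks was counted as KO only because its gap to the WT peak was 114 bp. Each of these intron peaks held the paired motif of Tfcp2l1 itself in the 200 bp around its middle. The motif is CCAG with a second CCAG 6 bases after the first. No other peak of the 6 genes held this motif, which was present in 3.31% of all WT and 3.01% of all KO peaks. The KO promoter peak and the WT intron peak are shown on the plus strand, with a Klf site, as its reverse complement, in capitals in the first and the Tfcp2l1 motif, in reverse complement, in the second:
Tfcp2l1, promoter, KO peak, chr1:120524371-120524471: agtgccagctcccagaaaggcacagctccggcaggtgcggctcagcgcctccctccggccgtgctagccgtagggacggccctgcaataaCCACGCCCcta
Tfcp2l1, intron, WT peak, chr1:120544665-120544765: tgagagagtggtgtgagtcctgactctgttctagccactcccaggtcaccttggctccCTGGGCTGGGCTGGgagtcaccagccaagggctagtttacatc

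The peaks of Tfcp2l1 that were not shared lay away from these positions or beside them. The WT only peaks were in introns 14.9 and 18.0 kb from the TSS, at steps 4 and 7, and 59.9 kb from it, past the gene's end, at step 1. The other KO only peaks lay 32.3 and 31 kb upstream, at steps 8 and 4, and 62.1 kb from the TSS, past the gene's end, at steps 1 and 3. When neighbouring peaks were merged, Tfcp2l1 had 5 separate regions in each genotype.

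Zfp42 lies on chr8:44380422-44392363 on the minus strand and has 1 annotated TSS. Its promoter held the peaks that stood highest in the lists among all peaks of the 6 genes. The WT peak lay 77 bp and the KO peak 79 bp upstream of the TSS, and the middles were 2 bp apart. By name number, the WT peak was within the first 0.689% of its chromosome's list and the KO peak within the first 1.43%. A second shared peak, 1.13 kb inside the gene, stood at step 20 or more in WT and at step 17 in KO. A shared cluster 13.9 kb upstream held WT peaks at steps 20 or more and 12, and KO peaks at 20 or more and 20 or more. The promoter peak and the upstream peak of WT are shown on the plus strand, with a Klf site in capitals in each:
Zfp42, promoter, WT peak, chr8:44392390-44392490: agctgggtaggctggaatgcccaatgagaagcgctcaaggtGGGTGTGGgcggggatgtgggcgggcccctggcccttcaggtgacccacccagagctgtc
Zfp42, upstream, WT peak, chr8:44406230-44406330: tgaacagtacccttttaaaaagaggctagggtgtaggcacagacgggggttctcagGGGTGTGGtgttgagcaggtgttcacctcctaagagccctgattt

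The body of Zfp42 carried peaks that were seen in WT alone. They lay 3.38, 7.08, 11.0 and 11.1 kb from the TSS, at steps 8, 16, 16 and 15, and the closest KO peak to any of them was 1465 bp away. Of the other WT only peaks, the one in the upstream cluster, at step 6, missed the limit for sharing by a gap of 103 bp, and 4 lay 24.8 and 26.7 kb upstream and 28.4 and 55.2 kb from the TSS past the gene's end, at steps 10, 3, 1 and 11. The KO only peaks were 3 peaks of low step, 2 of them 21.9 kb upstream at steps 3 and 4, and 1 at step 2, 17.3 kb from the TSS past the gene's end. Since chromosome 8 as a whole had fewer KO peaks, the lower number of KO peaks at Zfp42 and that of its chromosome cannot be told apart.

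Tbx3 lies on chr5:120120678-120134733 on the plus strand, has 6 TSSs, and its start is overlapped by the antisense gene Gm2301. The stretch from the gene start to the third TSS, 349 bp further on, held 4 WT peaks, at step 20 or more, 20 or more, 16 and 20 or more, from the first to the last. The same stretch, counted from 30 bp before the gene start, held 3 KO peaks, at steps 12, 8 and 10. Both genotypes were thus open at the start of Tbx3, but its KO peaks stood at lower steps than all 4 WT peaks. The promoter was rich in CpG, with 29 CpG dinucleotides and 70.3% GC in the 300 bp around the first TSS. The KO peak at this TSS is shown on the plus strand and held none of the motifs searched:
Tbx3, promoter, KO peak, chr5:120120598-120120698: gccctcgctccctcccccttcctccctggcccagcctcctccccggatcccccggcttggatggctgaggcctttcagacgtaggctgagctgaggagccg

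Past the end of Tbx3, a shared peak 42.4 kb from the gene start stood at step 14 in WT and at step 1 in KO, and another at 49.7 kb stood at step 20 or more in WT and at step 15 in KO. The WT only peak of Tbx3 lay between them and the gene, at 38.3 kb and step 10. Its KO only peak lay in an intron at step 1, 1.29 kb from an internal TSS. Apart from the KO peak at the promoter, neither genotype had a peak in the 50 kb upstream.

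Nr5a2 lies on chr1:138740161-138857004 on the minus strand and has 2 TSSs. All its 12 peaks, 6 in each genotype, lay in introns within the first 11.4 kb of a gene 117 kb long, with none in the rest of the gene or in either flank. Its first TSS had no peak within 2 kb in either genotype and was poor in CpG, with 2 CpG dinucleotides and 42.3% GC in 300 bp. The second TSS, 6.80 kb downstream, had 2 peaks in each genotype, both at step 12 in WT and both at step 1 in KO. At 10.8 and 10.9 kb, the WT peaks stood at steps 20 or more and 19, and their KO partners at steps 1 and 2. At 11.2 kb the WT step was 6 and the KO step 3. The WT peak of lowest step, at 11.4 kb and step 1, was the exception, with step 3 in its KO partner. The KO only peak, 2.56 kb from the first TSS, was at step 1. The WT peak at the second TSS is shown on the plus strand, with a Klf site (CCACGCCC) and a SOX site (CTTTGT), both as reverse complements, in capitals:
Nr5a2, second TSS, WT peak, chr1:138850296-138850396: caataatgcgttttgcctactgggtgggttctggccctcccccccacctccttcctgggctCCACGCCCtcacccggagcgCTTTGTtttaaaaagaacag

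Over the 6 genes, 38 WT peaks were shared and could be set beside a KO partner. The partner stood at a lower step in 25, at the same step in 4 and at a higher step in 9, with a median difference of -3.50 steps, where the median over all shared peaks was 0. A lower step thus took 65.8% of the pairs and a higher step 23.7%, against 47.6% and 25.7% of all shared WT peaks, so KO partners were more often lower than higher in the lists as a whole too. Pairs with both peaks at step 20 or more counted as the same step, whatever their order above it. Equal steps took 4 of the 38 pairs, but 13019 of all 48812 shared WT peaks. Step 20 or more held 16.1% of the WT peaks of the 6 genes and 26.2% of all WT peaks. The joined top step therefore limits the differences over all shared peaks more than those of the 6 genes. A partner at least 5 steps lower was found for 18 of the 38 (47.4%), against 29.1% of all shared WT peaks. A partner at least 5 steps higher was found for 5 (13.2%), against 12.5%. By gene, partners at least 5 steps lower made up 6 of 6 at Tbx3, 4 of 6 at Nr5a2, 3 of 6 at Prdm14, 3 of 12 at Esrrb, 1 of 3 at Tfcp2l1 and 1 of 5 at Zfp42. On the chromosomes of these genes the share ranged from 27.3% on chromosome 5 to 46.3% on chromosome 8. Neighbouring peaks of an open region are not independent of each other, so the 38 pairs stand for fewer places.

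The gap to the background was smaller by another measure with another limit. With the name numbers as a continuous rank within each chromosome, a partner at least 20 percentage points further down the list was found for 10 of the 38 (26.3%), against 20.5% of all shared WT peaks. Nr5a2 still had 4 of 6 and Tbx3 had 3 of 6. Esrrb then had 2 of 12, Prdm14 1 of 6, and Tfcp2l1 and Zfp42 had 0. At Nr5a2 the 4 peaks moved down by 55.7 to 70.3 points. A partner at least 20 points further up was found for 6 of the 38 (15.8%), against 15.7% of all.

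**Figure D4:**
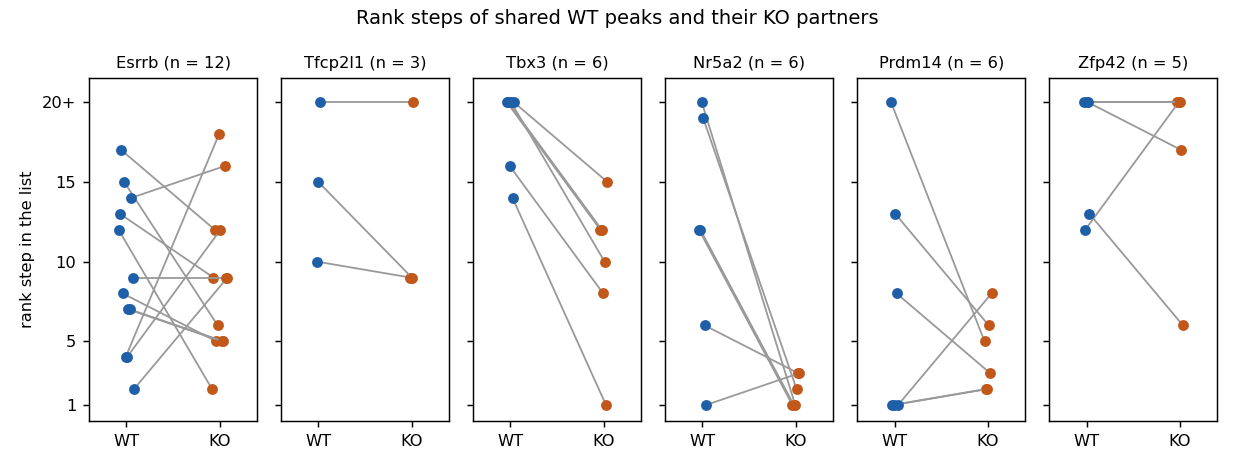
Rank step (vertical axis, 20+ for 20 or more) of each shared WT peak (blue) and of its closest KO partner (orange), joined by a line, for each of the 6 genes. All 6 lines fall at Tbx3 and 5 of 6 fall at Nr5a2, to step 3 or below, while lines at Esrrb run both ways and 2 of the 3 top peaks of Zfp42 and the top peak of Tfcp2l1 stand at 20 or more in both.

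Most peaks of the 6 genes lay away from promoters. Within 2 kb of any protein-coding TSS lay 17 of the 62 WT peaks (27.4%, interval 16.9 to 40.2%) and 13 of the 52 KO peaks (25.0%, 14.0 to 38.9%). All 17 and 13 of these lay near a TSS of the gene itself. The same measure gave 50.6% of all WT and 45.0% of all KO peaks, and the difference was not tested. The whole lists are not limited to windows around single genes, so the 2 sets are unlike in this. Introns held 30 WT and 23 KO peaks of the 6 genes. The median GC content over the central 200 bp was 55.2% in WT and 54.0% in KO, where the lists had 59.5% and 56.5%. The KO only peaks had a median of 52.0%, and those of the whole list 49.5%. All 62 WT and 52 KO peaks had a centre of 31 bp that occurs at 1 place in the genome.

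Among the other sequence motifs searched on both strands, the Klf site (GGGTGTGG or GGGCGTGG) was found in 12 WT peaks of the 6 genes (19.4%, interval 10.4 to 31.4%) and in 10 KO peaks (19.2%, 9.63 to 32.5%), against 8.34% and 8.23% of all peaks. Both intervals lie above the share of the list, but some neighbouring peaks share a site. Within the deposited intervals alone, 8 WT and 7 KO peaks held a Klf site, and no share of all peaks is given for that width. The SOX site ACAAAG was found in 10 WT peaks (16.1%) and 10 KO peaks (19.2%), against 12.1% and 14.2%, and CATTGTT in 1 and 3, against 2.11% and 2.83%. The T-box site AGGTGTGA was found in 1 KO peak, at Esrrb, and in 0 WT peaks, against 0.740% of all KO and 0.649% of all WT peaks. The STAT site TTCCNGGAA and the Prdm14 motif GGTCTCTAA were in 0 peaks of either genotype, which allows a share of up to 5.78% in WT and 6.85% in KO by the exact binomial interval. Of all peaks, the STAT site was in 0.645% in WT and 0.693% in KO, and the Prdm14 motif in 0.123% and 0.104%, so few or no matches among the peaks of 6 genes do not set them apart.

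Beside other groups of pluripotency genes, the 6 genes did not stand apart in number. The KO/WT ratio was 0.750 (interval 0.438 to 1.27) for the core factors Pou5f1, Sox2 and Nanog, 0.833 (0.517 to 1.34) for Klf2, Klf4 and Klf5, 0.879 (0.659 to 1.17) for 10 other genes of the naive network and 0.890 (0.640 to 1.24) for 10 formative and primed genes. WT only peaks made up 30.6%, 28.6%, 35.5% and 25.6% of these groups' WT peaks, against 38.7% at the 6 genes. In the same order, KO only peaks made up 18.5%, 14.3%, 22.3% and 15.1% of their KO peaks, against 28.8% at the 6 genes. Both shares were thus highest at the 6 genes among these groups. The ESC markers, which include the core factors, had a slightly higher WT only share of 39.1% and a KO only share of 23.4%. All these intervals overlap. Without Zfp42 the WT only share at the other 5 genes was 31.2%, the KO only share 27.3% and their KO/WT ratio 0.917.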

How the data were processed

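ATAC-seq peak lists of 1 WT and 1 Uhrf1 KO library of mouse ESCs were analysed. According to the submitters' processing notes and the methods, the authors mapped reads to mm9 with Bowtie2 2.1.0 and kept fragments under 150 bp. HOMER 4.9.1 is also named, without its role. The peak caller and its threshold are not given in the sources used here. The deposited values are peak positions and a score of 1.

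Positions were compared in Python 3.11.15, using pandas 2.3.3, numpy 2.4.6 and scipy 1.17.1, and figures drawn in matplotlib 3.10.9. Intervals are exact Poisson for numbers, Clopper-Pearson for shares and conditional binomial for ratios. Genes came from GENCODE vM1 and sequence from NCBIM37, which is mm9, and older symbols from a RefSeq table. Overlap and step routines were tested on 20000 simulated regions. The text names, per gene, the peaks closest to a TSS, the 3 shared peaks of lowest rank, peaks of 1 genotype and ERR element peaks. Other peaks named, 5 of the sequences shown and the rank step were chosen after their values were seen. The members and lists were chosen with earlier results of these data known.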

Additional observations from a re-analysis of the deposited data

How the results depend on the processing

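No paired analysis was possible because WT and KO have 1 library each. Of 166 values recomputed under an alternative, 119 stayed within the limits set for them and 47 moved. Most are numbers or shares of 1 genotype, which have no direction to reverse. The order of WT and KO peak numbers per gene was kept in 29 of 40 cases, tied in 6 and turned in 5, which were Esrrb with the first 50% of name numbers (6 WT, 7 KO) or at step 5 or more (10, 11), Tfcp2l1 in the gene body (4, 3), Tbx3 with merged peaks (4, 5) and Prdm14 with lists of equal length (8, 11). The WT number of 62 became 38 in the gene bodies alone and 33 with the first 50% of name numbers alone. The KO number of 52 became 27 and 22, and 30 at step 5 or more. If at least 50% of a peak had to be covered, the WT only share rose to 56.5% and the KO only share to 44.2%. With those 50% set against the whole KO list the WT only share was 21.2%, and from step 5 upwards the KO only share was 13.3%. Pairs with a KO partner at least 5 steps lower numbered 18, and those with one at least 20 points further down the continuous rank 10, a change of both measure and limit. With gene starts alone, 4 genes had a WT and 3 a KO peak at the TSS. Within the deposited intervals alone, 0 WT peaks and 1 KO peak held an ERR element. In WT and KO, the octamer was then in 0 and 1 peaks, the SOX site ACAAAG in 5 and 5 and CATTGTT in 1 and 2. The Klf site was in 8 and 7, the Tfcp2l1 motif in 1 and 2, and the T-box site in 0 and 0. The settings by step and by continuous rank were added after seeing the data. Depth and the caller's threshold are unknown, so a peak missing from a list does not show closed chromatin.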
